A study of Rattus norvegicus with 7 samples.

Results

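The heat shock proteins and chaperonins on the array were gathered by gene symbol. The set takes in symbols that begin with Hsp followed by a, b, d, e, h or 9, those that begin with Dnaj, those of Cct followed by a digit, and *Tcp1*. This rule found 72 probes for 70 genes among 13337 named genes and 22523 probes of the array. Of these genes, 52 had a detection p-value under 0.02 on at least 2 of the 7 arrays, which is 74.3% of the 70, and these 52 are compared here, each by its brightest probe. They lie among 9187 probes that met the same limit.

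The study asked which mRNAs associate with TRF2-S, a shortened, cytoplasmic splice form of the telomere protein TRF2 that binds RNA in neurons. Cortical neurons were prepared from Sprague-Dawley rat embryos of day 18 and kept for 9 days in culture, with no genetic change and no drug in either group. Protein-RNA complexes were immunoprecipitated (RIP) from the same kind of lysate with a polyclonal antibody to TRF2-S (H300), giving 2 arrays, or with rabbit IgG, giving 5 arrays. RNA of the input lysate was not analysed here, so a difference between the antibodies is not set against the abundance of each mRNA, and fewer cells of a type and less RNA per cell cannot be told apart.

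Molecular chaperones bind unfolded or partly folded proteins and keep them from aggregating. HSP70 proteins work in cycles of ATP hydrolysis that J-domain proteins (the DNAJ family) start and nucleotide exchange factors, among them the HSP110 proteins, reset. HSP90 acts later on selected clients, small heat shock proteins hold unfolded chains without ATP, and chaperonins enclose a chain in a ring. The cytosolic chaperonin TRiC, built of CCT subunits, folds actin and tubulin, which neurons need for axon growth, and the mitochondrial chaperonin is built of HSPD1 (HSP60) and its lid HSPE1 (HSP10). Many of these genes are induced by heat shock factors, which bind repeated units of the bases nGAAn in promoters.

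The promoter shared by *Hspd1* and *Hspe1* is shown first, because these neighbouring genes encode the partners of one machine and their RIP signals are compared below. In the RefSeq annotation of rat assembly GRCr8 they lie head to head on chromosome 9, with start sites 290 bases apart, and their windows of 250 bases before the start share 211 bases. The window of *Hspe1* is chr9:64084077-64084326 on the plus strand, 5′ to 3′, with the heat shock element match in capitals.

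Hspe1: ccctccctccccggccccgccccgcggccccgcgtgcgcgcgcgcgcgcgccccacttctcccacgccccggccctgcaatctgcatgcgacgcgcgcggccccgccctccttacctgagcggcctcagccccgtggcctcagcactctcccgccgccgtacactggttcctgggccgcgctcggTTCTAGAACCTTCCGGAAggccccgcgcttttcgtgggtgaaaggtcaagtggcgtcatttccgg

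The search was for GAANNTTCNNGAA or TTCNNGAANNTTC, that is 3 alternating units with 2 bases between them, on both strands, and overlapping matches were joined. In this window the joined match runs for 18 bases, from -65 to -48 before the *Hspe1* start, and the same bases lie from -242 to -225 before the *Hspd1* start. Of the 70 genes, 59 had a promoter window in the table, and 3 of these (5.08%) held a match, namely *Hspd1*, *Hspe1* and *Hsph1*, against 0.663% of 33469 windows of all genes. Only *Hspd1* and *Hspe1*, 2 of 46 (4.35%), were also detected by the array. Their match is the same stretch of bases, which these percentages count once for each gene. A match describes the bases and is not evidence of binding.

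Signals differed in overall brightness. Probes detected on an array numbered from 7097 to 8326, and of the 52 chaperone genes between 42 and 48 were detected on each array, with 37 detected on all 7. The arrays named IgG3, IgG3_0 and IgG3_1x, listed in this order throughout, had a mean signal of 298 to 608 per probe, against 155 to 216 on the other 4 arrays. Over all tested probes the log2 signals of IgG1, IgG2 and the TRF2-S arrays correlated with each other at r = 0.977 to 0.991, and those of the IgG3-named arrays with these 4 at r = 0.875 to 0.933. Among themselves the IgG3-named arrays correlated at r = 0.979 to 0.999. The closest were IgG3 and IgG3_1x, at 0.999, where IgG1 and IgG2 had 0.991. The labels number all 5 IgG arrays as replicates, and the sources do not say whether the IgG3-named arrays hold separate RNA. If they do not, the SEs and p-values against all 5 count repeats as replicates, which was not tested. Each comparison is therefore given against IgG1 and IgG2 and against all 5 IgG arrays. Both use the same TRF2-S arrays, so they are not independent.

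Values are log2 signals that were Z-scored within each array, which makes every array equal in mean and SD, and then returned to a log2 scale with a mean of 6.98 and an SD of 1.21. A difference is the TRF2-S mean minus the IgG mean on this scale, with the standard error (SE) of limma's moderated fit, and adjusted p-values are Benjamini-Hochberg values over the 9187 probes. Levels of different genes cannot be ranked, because each probe has its own brightness.

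No chaperone gene passed an adjusted p of 0.05 in either comparison. Against IgG1 and IgG2, 0 of 52 were called, where 0.152% of all tested probes were. Against all 5 IgG arrays 0 of 52 were called, where 0.0327% were. At an unadjusted p under 0.05 against IgG1 and IgG2, 3 genes were higher in the TRF2-S RIP (*Hspe1*, *Dnajc19* and *Dnajc7*), beside 6.51% of all probes, and 5 were lower (*Cct2*, *Cct3*, *Cct5*, *Dnajb1* and *Dnajc2*), beside 6.02% of all probes. Against all 5 IgG arrays 0 genes were higher at that p, beside 6.06% of all probes, and 7 were lower (*Cct2*, *Cct3*, *Cct5*, *Dnajb1*, *Dnajb6*, *Dnajc2* and *Hspa5*), beside 6.06% of all probes. A probe at this unadjusted p is not called. Before normalization the TRF2-S arrays overlapped IgG1 and IgG2 for every gene named here against that pair. *Cct3*, for example, read 403.1 and 643.3 against 534.6 and 698.9, and *Hspe1* 297.5 and 533.1 against 263.9 and 344.1. Their separation from IgG1 and IgG2 given below is thus seen only after the Z-score.

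These counts moved when an array was left out. Against IgG1 and IgG2 this left 1 array in a group, so only an effect size is given. The median difference of the 52 genes less that of all probes was then -0.06 to -0.04. Against all 5 IgG arrays the 7 lower genes became 12 without IgG1, 12 without IgG2, 4 without IgG3, 4 without IgG3_0 and 3 without IgG3_1x. The share of all probes at that p is not given for these fits, so the counts show only that they are unstable.

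By position alone, both TRF2-S arrays lay above IgG1 and IgG2 for 11 of the 52 genes (beside 22.5% of all probes) and below both for 17 (beside 19.4% of all probes). Against all 5 IgG arrays 4 genes lay above every IgG array (beside 10.3% of all probes) and 11 below (beside 11.6% of all probes). *Dnajb14*, below in both comparisons, was detected on 2 IgG3-named arrays and no others, so it met the detection limit through those alone. The difference was above 0 for 21 of 52 genes against IgG1 and IgG2 (beside 51.4% of all probes) and for 13 of 52 against all 5 (beside 41.3% of all probes). The median difference of the 52 genes was -0.04 against IgG1 and IgG2, where the median of all tested probes was 0.0048, and -0.18 against all 5 IgG arrays, where it was -0.07.

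**Figure D1:**
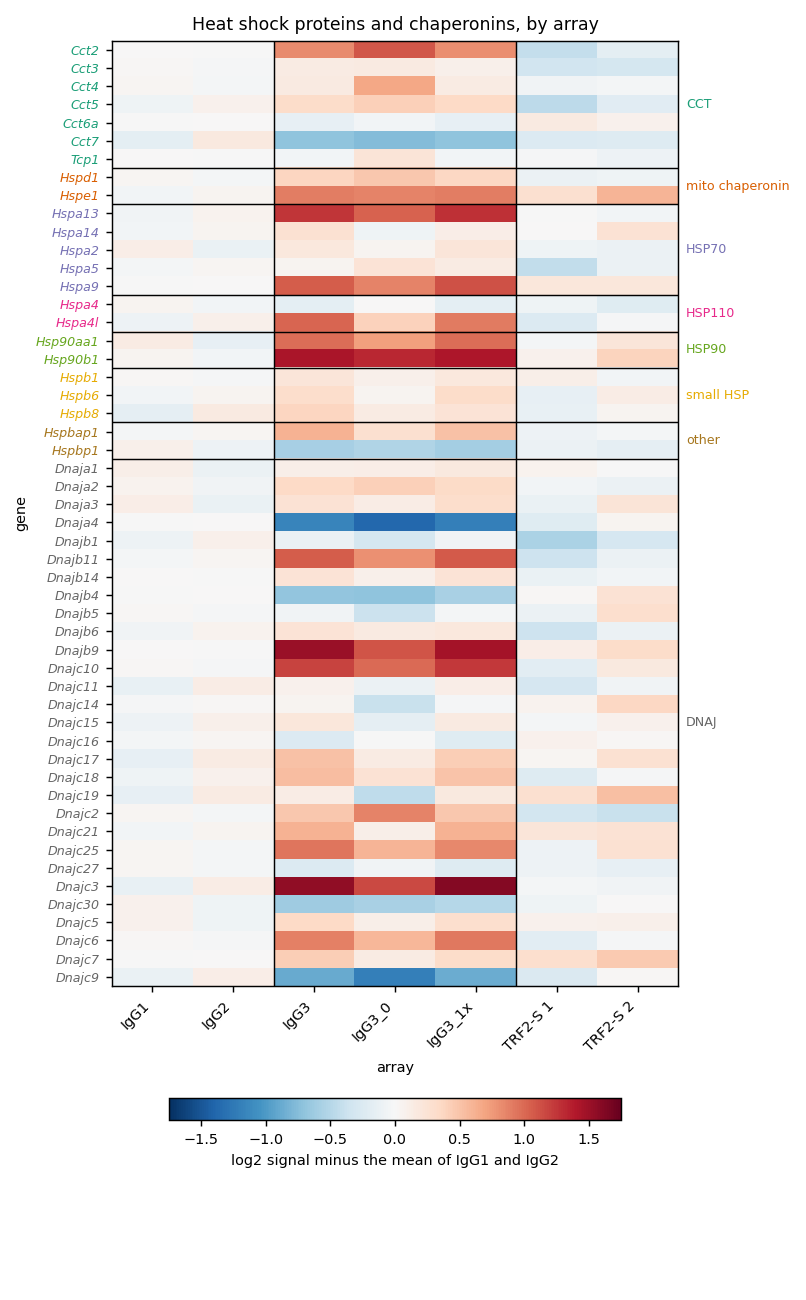
Log2 signal (Z-scaled) of each of the 52 genes on each of the 7 arrays, minus the mean of IgG1 and IgG2 for that gene, as colour from blue (lower) to red (higher), with genes in rows by family. The IgG3-named columns hold the strongest colours, among them *Dnajc3*, *Hsp90b1* and *Dnajb9* in red and *Dnaja4* in blue, while both TRF2-S columns stay pale.

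Of 8 CCT genes on the array 7 were tested, and *Cct8l2* was not detected. The TRF2-S arrays lay below IgG1 and IgG2 for 5 of the 7 genes (19.4% of all probes) and above for 1 (22.5% of all probes), and 3 were lower at an unadjusted p under 0.05 (6.02% of all probes). With all 5 IgG arrays, they lay below every one for 3 genes (11.6% of all probes) and above for 1 (10.3% of all probes), and 3 were lower at that p (6.06% of all probes). The median difference of the 7 was -0.23 against IgG1 and IgG2 and -0.24 against all 5 IgG arrays. Less the median of all probes, the first of these was -0.24 and became -0.09 without IgG2, and the second was -0.17 and became -0.04 without IgG3_0 and -0.77 when the arrays were centred on their medians in place of the Z-score.

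*Cct3*, a subunit of the ring, had log2 signals of 9.66 and 9.69 on the TRF2-S pair, 10.01 and 9.98 on the IgG1 and IgG2 pair, and 10.14, 10.15 and 10.09 on the 3 IgG3-named arrays. Both TRF2-S arrays lay below every IgG array, and the 5 IgG arrays lay close together. The difference was -0.32 (SE 0.10, adjusted p = 0.28), a fold of 1.25, against IgG1 and IgG2. It was -0.40 (SE 0.10, adjusted p = 0.41) against all 5.

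*Cct5*, another subunit, read 9.61 and 9.88 on the TRF2-S pair, 10.00 and 10.15 on the IgG1 and IgG2 pair, and 10.39, 10.49 and 10.42 on the 3 IgG3-named arrays. The TRF2-S arrays were again the lowest of the 7, and they differed from each other by more than IgG1 did from IgG2. The difference was -0.33 (SE 0.13, adjusted p = 0.37) against IgG1 and IgG2 and -0.54 (SE 0.17, adjusted p = 0.41) against all 5. Without TRF2-S array 1 the difference of *Cct5* against IgG1 and IgG2 was -0.19.

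For *Cct2* the signals were 9.50 and 9.76 on the TRF2-S pair, 9.93 and 9.92 on the IgG1 and IgG2 pair, and 10.75, 11.01 and 10.73 on the 3 IgG3-named arrays. The TRF2-S arrays lay below IgG1 and IgG2, and the IgG3-named arrays stood well above all others. The difference was -0.29 (SE 0.12, adjusted p = 0.39) against IgG1 and IgG2 and -0.84 (SE 0.33, adjusted p = 0.41) against all 5. With the IgG3-named arrays averaged to 1 value, the second difference of *Cct2* was -0.60. Before normalization *Cct2* read 369.8 and 674.1 on the TRF2-S pair and 511 and 673.6 on IgG1 and IgG2, so the groups overlapped on that scale. The same held for *Cct3* and *Cct5*.

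The other 4 CCT genes had an unadjusted p above 0.05 in both comparisons, and for *Cct7* and *Tcp1* the TRF2-S arrays also lay below IgG1 and IgG2. *Cct6a* was the only CCT gene with a difference above 0 in both comparisons. It read 10.25 and 10.16 on the TRF2-S pair, 10.08 and 10.11 on the IgG1 and IgG2 pair, and 9.96, 10.04 and 9.95 on the 3 IgG3-named arrays, with differences of 0.11 (SE 0.11, adjusted p = 0.76) and 0.18 (SE 0.10, adjusted p = 0.41). Its second difference was -0.58 after median centring, where the median of all tested probes was -0.34, so the sign of *Cct6a* against all 5 depends on the scaling. *Cct7* read 10.13 and 10.47 on IgG1 and IgG2, 10.07 on both TRF2-S arrays and 9.55 to 9.59 on the IgG3-named arrays. The TRF2-S arrays thus lay between both kinds of IgG array, with differences of -0.23 (SE 0.14) and 0.20 (SE 0.27), the latter -0.49 after median centring. *Cct4* and *Tcp1*, the latter encoding the alpha subunit, differed by -0.04 and -0.05 against IgG1 and IgG2 and by -0.24 and -0.08 against all 5, with SEs of 0.10 to 0.19.

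**Figure D2:**
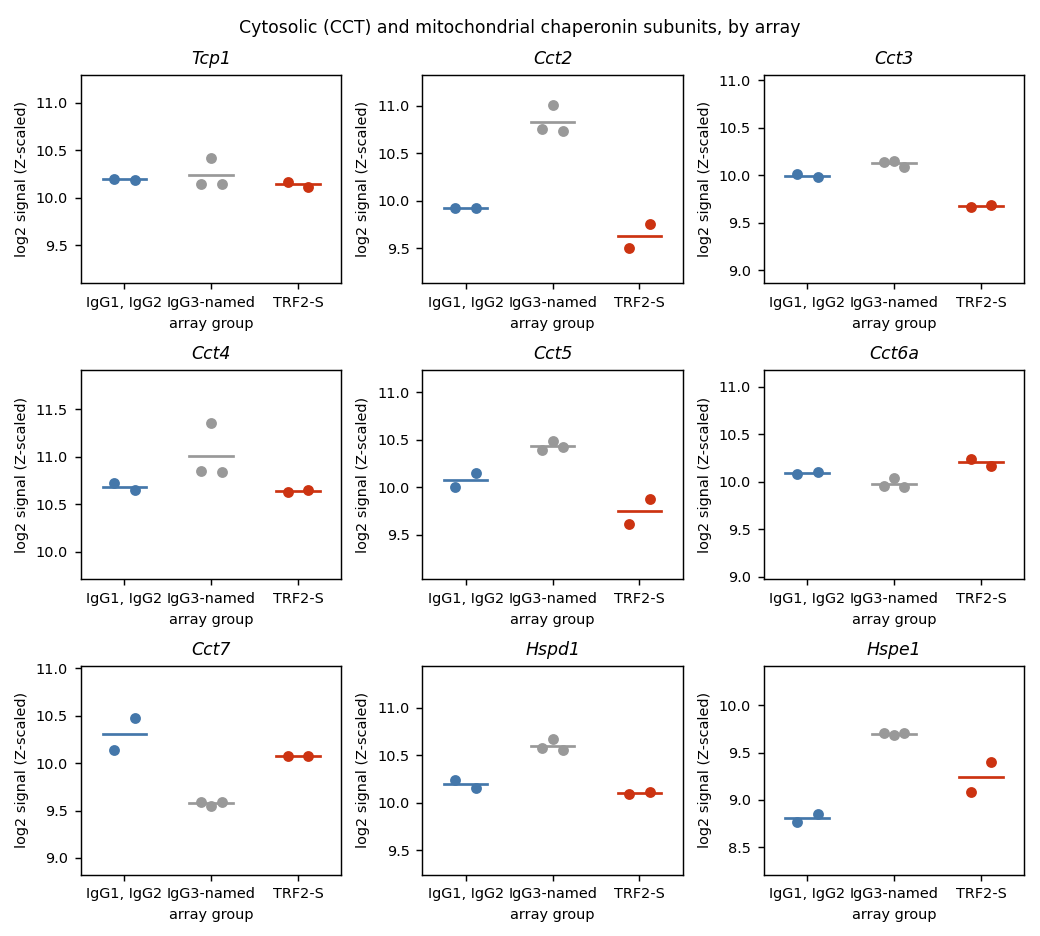
Log2 signal (Z-scaled) of the 7 CCT genes and of *Hspd1* and *Hspe1*, 1 panel a gene, with a point for each array and a line at the mean of each group of arrays. The TRF2-S points of *Cct2*, *Cct3* and *Cct5* are the lowest in their panels, and those of *Hspe1* lie between IgG1 and IgG2 below and the IgG3-named arrays above.

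The mitochondrial chaperonin genes, which share the promoter printed above, differed in sign against IgG1 and IgG2. *Hspe1*, the HSP10 lid, read 9.09 and 9.40 on the TRF2-S pair, 8.77 and 8.85 on the IgG1 and IgG2 pair, and 9.71, 9.68 and 9.71 on the 3 IgG3-named arrays. Both TRF2-S arrays lay above IgG1 and IgG2 and below every IgG3-named array. Its difference against IgG1 and IgG2 was 0.44 (SE 0.13, adjusted p = 0.26), a fold of 1.35 and the largest of the 52 genes in size. Its difference against all 5 was -0.10 (SE 0.32, adjusted p = 0.86) and became 0.14 with the IgG3-named arrays averaged and 0.04 after quantile normalization, so *Hspe1* has no settled direction there.

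*Hspd1*, the HSP60 ring, read 10.10 and 10.12 on the TRF2-S pair, 10.24 and 10.16 on the IgG1 and IgG2 pair, and 10.57, 10.67 and 10.56 on the 3 IgG3-named arrays. The TRF2-S arrays were the lowest of the 7, by a small margin from IgG2. The differences were -0.09 (SE 0.11, adjusted p = 0.81) and -0.33 (SE 0.17, adjusted p = 0.41).

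The ratio of the *Hspe1* to the *Hspd1* probe before normalization, which does not change when all signals of an array are multiplied by the same factor but does change under the Z-score, was 0.588 and 0.624 on the TRF2-S pair, 0.433 and 0.440 on the IgG1 and IgG2 pair, and 0.452, 0.519 and 0.470 on the 3 IgG3-named arrays. It was higher on both TRF2-S arrays than on every IgG array. On the Z-scaled log2 values the difference of *Hspe1* and *Hspd1* was -1.47 and -1.31 on IgG1 and IgG2, -0.99 to -0.85 on the IgG3-named arrays, and -1.01 and -0.71 on the TRF2-S arrays, which overlap the IgG3-named ones. This ratio was chosen after the values were seen and was not tested.

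Among the 5 HSP70 genes tested, none passed the threshold, and the median difference was -0.03 against IgG1 and IgG2 and -0.35 against all 5. *Hspa5* encodes BiP, the HSP70 of the endoplasmic reticulum (ER). It read 9.21 and 9.54 on the TRF2-S pair, 9.60 and 9.67 on the IgG1 and IgG2 pair, and 9.68, 9.87 and 9.78 on the 3 IgG3-named arrays. The TRF2-S arrays were the lowest, the second by a small margin from IgG1. Differences were -0.27 (SE 0.14, adjusted p = 0.51) and -0.35 (SE 0.13, adjusted p = 0.41).

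*Hspa9*, the mitochondrial HSP70 (mortalin), read 8.51 and 8.50 on the TRF2-S pair, 8.30 and 8.32 on IgG1 and IgG2, and 9.18 to 9.43 on the IgG3-named arrays. As for *Hspe1*, the TRF2-S arrays lay between both kinds of IgG array, with differences of 0.20 (SE 0.10, adjusted p = 0.51) and -0.41 (SE 0.36, adjusted p = 0.50). *Hspa13*, a microsomal member of the family, differed by -0.03 (SE 0.11) and -0.74 (SE 0.41, adjusted p = 0.41), with 8.49 to 8.74 on its IgG3-named arrays and 7.40 to 7.52 on the other 4. *Hspa14*, which pairs with *Dnajc2* at the ribosome, differed by 0.14 (SE 0.12) and 0.08 (SE 0.13), and *Hspa2* was detected on only 2 arrays, both IgG3-named. *Hspa12a*, *Hspa12b* and the heat-inducible *Hspa1b* were detected on none. The constitutive *Hspa8* and the inducible *Hspa1a* had no named probe in the annotation used here.

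For the HSP110 exchange factors *Hspa4* and *Hspa4l* the differences against IgG1 and IgG2 were -0.15 (SE 0.11) and -0.13 (SE 0.13), and against all 5 they were -0.08 (SE 0.11) and -0.60 (SE 0.32, adjusted p = 0.41). *Hsph1*, the third gene of this kind and a holder of the heat shock element match, was detected on 0 arrays.

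In the HSP90 family, *Hsp90aa1*, the inducible cytosolic form, read 8.65 and 8.36 on IgG1 and IgG2, 9.48, 9.23 and 9.49 on IgG3, IgG3_0 and IgG3_1x, and 8.47 and 8.72 on the TRF2-S arrays. *Hsp90b1*, the ER form known as GRP94, read 8.12 and 8.01 on IgG1 and IgG2, 9.50, 9.38 and 9.48 on the IgG3-named arrays, and 8.15 and 8.46 on the TRF2-S arrays. Only for *Hsp90b1* did the TRF2-S arrays clear IgG1 and IgG2, the first by a small margin. The differences were 0.09 (SE 0.15, adjusted p = 0.88) and 0.24 (SE 0.14, adjusted p = 0.56) against IgG1 and IgG2, and -0.45 (SE 0.33) and -0.60 (SE 0.48) against all 5, with an opposite sign. The constitutive *Hsp90ab1* was detected on 0 arrays.

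Small heat shock proteins gave little signal. *Hspb1* (HSP27), *Hspb6* and *Hspb8*, 3 of 7 genes, were tested, with differences of 0.02, -0.01 and -0.04 against IgG1 and IgG2 (SE 0.11 to 0.14) and of -0.08, -0.14 and -0.19 against all 5 (SE 0.12 to 0.16). *Hspb1* was detected on only 2 arrays, both IgG3-named. *Hspb2*, *Hspb3*, *Hspb7* and *Hspb9* were detected on none. The symbol rule also took in *Hspbp1*, a nucleotide exchange factor of HSP70, at -0.13 (SE 0.12) and 0.21 (SE 0.22), and *Hspbap1*, at -0.06 (SE 0.11) and -0.35 (SE 0.20).

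**Figure D3:**
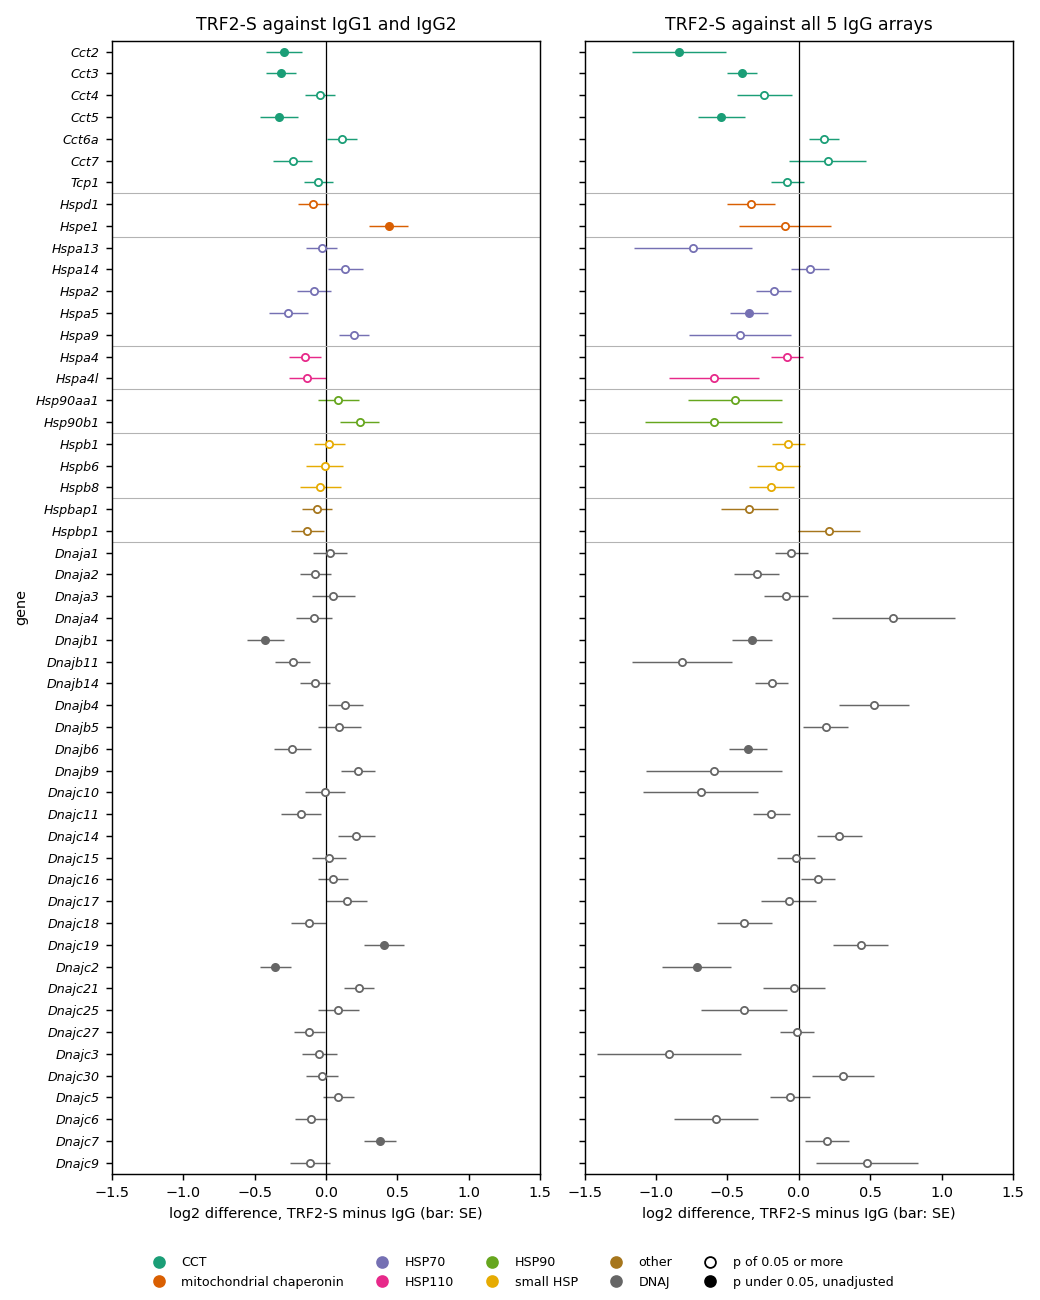
Difference in log2 signal (Z-scaled), TRF2-S minus IgG, for each of the 52 genes, against IgG1 and IgG2 on the left and against all 5 IgG arrays on the right, with bars of 1 SE. Filled points have an unadjusted limma p under 0.05, none of which stays under 0.05 after adjustment, and the bars of many genes are longer on the right.

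J-domain proteins formed the largest family, with 29 of 37 genes tested. Their median difference was -0.01 against IgG1 and IgG2 and -0.07 against all 5. By subfamily it was -0.02 and -0.07 for 4 DNAJA genes, -0.08 and -0.33 for 7 DNAJB genes and 0.01 and -0.05 for 18 DNAJC genes. At an unadjusted p under 0.05 against IgG1 and IgG2, 2 of the 29 genes, both DNAJC, were higher (beside 6.51% of all probes). In the same comparison 2 of 29, 1 DNAJB and 1 DNAJC gene, were lower (beside 6.02% of all probes).

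*Dnajb1* is the classical HSP40 that starts the HSP70 cycle in the cytosol. It read 8.97 and 9.23 on the TRF2-S pair, 9.44 and 9.61 on the IgG1 and IgG2 pair, and 9.41, 9.22 and 9.47 on the 3 IgG3-named arrays. TRF2-S array 1 was the lowest of the 7, and TRF2-S array 2 stood level with IgG3_0. The difference was -0.43 (SE 0.13, adjusted p = 0.26), a fold of 1.34, against IgG1 and IgG2 and -0.33 (SE 0.14, adjusted p = 0.41) against all 5.

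*Dnajc2* encodes a J protein that sits on the ribosome and receives nascent chains with HSPA14. It read 9.62 and 9.54 on the TRF2-S pair, 9.97 and 9.90 on the IgG1 and IgG2 pair, and 10.41, 10.80 and 10.40 on the 3 IgG3-named arrays. Both TRF2-S arrays lay below every IgG array. The difference was -0.36 (SE 0.11, adjusted p = 0.26) against IgG1 and IgG2 and -0.72 (SE 0.24, adjusted p = 0.41) against all 5.

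*Dnajb6*, known as a suppressor of polyglutamine aggregation, read 8.63 and 8.76 on IgG1 and IgG2, 8.94, 8.86 and 8.88 on IgG3, IgG3_0 and IgG3_1x, and 8.33 and 8.59 on the TRF2-S arrays. The TRF2-S arrays were the lowest, and the second came within 0.04 of IgG1. Its differences were -0.24 (SE 0.13, adjusted p = 0.53) and -0.36 (SE 0.13, adjusted p = 0.41).

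On the higher side, *Dnajc19*, a mitochondrial inner membrane J protein related to the import motor, read 8.31 and 8.56 on the TRF2-S pair, 7.89 and 8.17 on the IgG1 and IgG2 pair, and 8.16, 7.58 and 8.20 on the 3 IgG3-named arrays. Both TRF2-S values exceeded those of all 5 IgG arrays, and the IgG arrays were widely spread. The difference was 0.41 (SE 0.14, adjusted p = 0.31) against IgG1 and IgG2 and 0.43 (SE 0.19, adjusted p = 0.41) against all 5. Without normalization, where the median of all tested probes was -0.62, the second difference of *Dnajc19* was -0.27.

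*Dnajc7*, which binds both HSP70 and HSP90 through tetratricopeptide repeats, read 8.62 and 8.78 on the TRF2-S pair, 8.32 and 8.33 on the IgG1 and IgG2 pair, and 8.76, 8.46 and 8.64 on the 3 IgG3-named arrays. The TRF2-S arrays lay above IgG1 and IgG2 and overlapped the IgG3-named arrays. The difference was 0.38 (SE 0.11, adjusted p = 0.25) and, against all 5, 0.20 (SE 0.15, adjusted p = 0.47), with the latter at -0.30 after median centring, where the median of all tested probes was -0.34.

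Of the J proteins of the nerve terminal, *Dnajc5*, the cysteine string protein of synaptic vesicles, differed by 0.09 (SE 0.11, adjusted p = 0.84) and -0.06 (SE 0.14), and was detected on 4 of 7 arrays. *Dnajc6* encodes auxilin, which recruits HSP70 to uncoat clathrin vesicles, and differed by -0.11 (SE 0.11, adjusted p = 0.79) and -0.58 (SE 0.30, adjusted p = 0.41), with both TRF2-S arrays below every IgG array, the second by a small margin. It was not detected on TRF2-S array 1, where its unnormalized signal of 82 lay under the lowest detected signal, 86.3. *Dnaja1*, a general cytosolic J protein, differed by 0.03 (SE 0.12) and -0.05 (SE 0.11). A further 8 J-protein genes did not meet the detection limit, *Dnajb8*, *Dnajb12*, *Dnajb13*, *Dnajc4*, *Dnajc5b*, *Dnajc5g* and *Dnajc28* on 0 arrays and *Dnajc8* on 1.

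Much of the spread in the comparison with all 5 IgG arrays lay between the IgG arrays themselves. Of the 52 genes, 30 (57.7%) had all IgG3-named arrays above IgG1 and IgG2, where 40.4% of all tested probes did, and 9 (17.3%) had them below, where 28.5% did. Among the 30, *Hspb1* and *Dnajb14* were detected on 2 IgG3-named arrays and no others. *Dnajc5* and *Dnajc25* were detected on 3 IgG3-named arrays and 1 TRF2-S array. These genes met the detection limit only through the arrays where they were high, so their place in the count is no evidence. The median difference of IgG3-named minus IgG1 and IgG2 was 0.23 over the 52 genes and 0.10 over all tested probes. The largest were 1.44 for *Dnajc3*, 1.39 for *Hsp90b1*, 1.36 for *Dnajb9*, 1.19 for *Hspa13*, 1.14 for *Dnajc10* and 1.02 for *Hspa9*, followed by 0.98 for *Dnajb11*, 0.91 for *Cct2* and 0.89 for *Hspe1* and *Hsp90aa1*. These genes encode chaperones of the ER, the mitochondria and the cytosol. At the other end lay *Dnaja4* at -1.24 and *Dnajc9*, a histone chaperone of the nucleus, at -0.98. These genes were picked for their size after the values were seen. The TRF2-S differences against IgG1 and IgG2 of those not given above were -0.05 for *Dnajc3*, 0.22 for *Dnajb9*, -0.01 for *Dnajc10* and -0.23 for *Dnajb11*. The IgG3-named arrays were also brighter before normalization, and the part of that brightness in these differences was not tested.

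**Figure D4:**
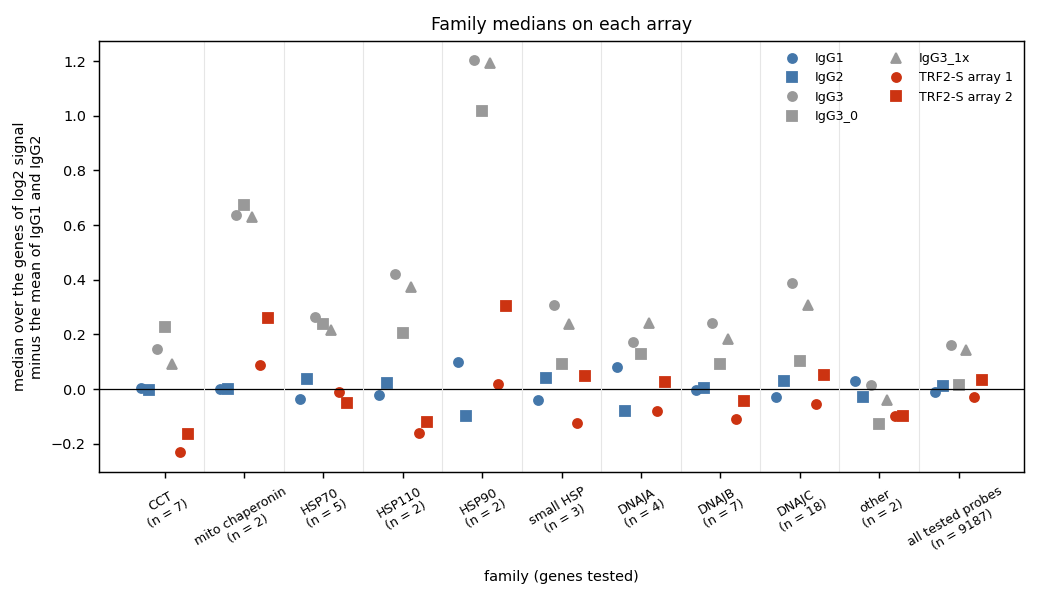
Median over the genes of each family of the log2 signal (Z-scaled) minus the mean of IgG1 and IgG2, on each array, with all 9187 tested probes at the right. The IgG3-named arrays stand highest for the HSP90 and mitochondrial chaperonin families, and the TRF2-S medians are lowest for CCT.

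Co-chaperones outside the symbol rule gave 0 called genes in either comparison. Of 26 co-chaperones of HSP70 and HSP90, 19 were tested, 1 of them higher (6.51% of all probes) and 2 lower (6.02% of all probes) by unadjusted p against IgG1 and IgG2, with a median difference of 0.05. With all 5 IgG arrays, 2 were higher and 1 lower (6.06% of all probes in each direction), with a median of -0.09. *Sgta*, which helps deliver tail-anchored proteins, read 9.65 and 9.98 on the TRF2-S pair, 10.35 and 11.03 on the IgG1 and IgG2 pair, and 10.24, 10.26 and 10.21 on the 3 IgG3-named arrays. It was lowest on the TRF2-S arrays, and IgG1 and IgG2 were far apart. Its differences were -0.88 (SE 0.22, adjusted p = 0.21) and -0.60 (SE 0.24, adjusted p = 0.41). *Cdc37*, which brings kinases to HSP90, differed by -0.36 (SE 0.11, adjusted p = 0.27) against IgG1 and IgG2 and by 0.14 (SE 0.30, adjusted p = 0.78), with the opposite sign, against all 5. *Tomm34*, a cytosolic partner in mitochondrial import, differed by 0.31 (SE 0.12, adjusted p = 0.35) and 0.55 (SE 0.17, adjusted p = 0.41). It was detected on only 3 of 7 arrays and lay near background, at 6.22 to 6.68 on the IgG arrays and 6.85 and 7.07 on the TRF2-S pair.

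Prefoldin and other cofactors of the cytosolic chaperonin had 6 of 9 genes tested. By unadjusted p against IgG1 and IgG2, 0 were higher (6.51% of all probes) and 1 lower (6.02% of all probes), with a median of 0.16. The lower gene was *Pfdn1* (-0.45, SE 0.19, adjusted p = 0.38). Against all 5 these cofactors had 2 higher and 1 lower (6.06% of all probes in each direction) and a median of 0.11. Among 15 organelle chaperones and cofactors, 12 were tested. By unadjusted p, 0 were higher (6.51% of all probes) and 2 lower (6.02% of all probes) against IgG1 and IgG2, with a median of -0.07. Against all 5, 0 were higher and 4 lower (6.06% of all probes in each direction), with a median of -0.29. Those lower in the first comparison were *Lonp1*, the protease of the mitochondrial matrix, at -0.49 (SE 0.13, adjusted p = 0.23) and *Calr*, the ER lectin calreticulin, at -0.27 (SE 0.11, adjusted p = 0.37), and against all 5 they had -0.87 (SE 0.25) and -0.26 (SE 0.11). *Hsf2*, the one heat shock factor detected, differed by -0.13 (SE 0.14) and -0.70 (SE 0.34), and *Cryab*, a small heat shock protein of the lens and glia, by -0.08 (SE 0.13) and -0.07 (SE 0.12).

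The label of cortical neurons was set against marker genes. All 9 neuron markers on the array met the detection limit. Against IgG1 and IgG2, 4 were higher by unadjusted p (*Syn1*, *Tubb3*, *Snap25* and *Map2*, 0.27 to 0.48, beside 6.51% of all probes), with 0 lower. The difference was above 0 for 5 of the 9 (beside 51.4% of all probes), with a median of 0.06. *Gap43*, *Stmn2*, *Syp* and *Rbfox3* had -0.07, -0.11, -0.05 and -0.005. *Syn1* was detected on only 2 arrays, the TRF2-S pair, so it met the limit through that group alone. It read 6.91 and 6.86 there and 6.44 to 6.53 on the IgG arrays. With all 5 IgG arrays, *Syn1* (0.40) and *Map2* (0.42) were higher by unadjusted p (6.06% of all probes), while *Tubb3*, *Snap25* and *Syp* had -0.39, -0.29 and -0.84. The difference was above 0 for 5 of the 9 neuron markers there (beside 41.3% of all probes), with a median of 0.09. Glial markers were present as well, with 2 of 6 astrocyte genes (*S100b* and *Slc1a3*) and 2 of 4 oligodendrocyte genes (*Cnp* and *Olig1*) lower against IgG1 and IgG2, by differences of -0.47 to -0.32 (6.02% of all probes). In the other comparison *S100b* had 0.20, *Slc1a3* -0.29, *Cnp* -0.10 and *Olig1* 0.37, and 2 astrocyte markers (*Slc1a3* and *Gfap*) and 0 oligodendrocyte markers were lower by unadjusted p (6.06% of all probes). Only 1 of 6 microglia markers was detected. Summed unnormalized signals over the detected astrocyte markers were 1643 and 2812 on the TRF2-S pair, against 2255 and 2710 on IgG1 and IgG2, and over oligodendrocyte markers 2402 and 4166 against 3556 and 4857. No marker was called, and the part of these cell types in the chaperone differences was not tested.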

How the data were processed

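Intensity values, 1 per probe on every array, were deposited as the scanner software gave them, linear and not normalized between arrays, with a deposited detection p-value against negative control beads. A score the authors also deposited is, to within 5e-10, the log intensity Z-scored by array, and was not used further. The submitters' processing notes name GenomeStudio 2011.1. From the intensities, log2 values were Z-scored per array and put on a common mean of 6.98 and SD of 1.21, with no background subtraction. This understates changes of dim probes. Probes with detection p under 0.02 on at least 2 arrays were fitted with the lmFit and eBayes functions of limma 3.58.1 (R 4.3.3), with Benjamini-Hochberg adjustment over 9187 probes and a threshold of 0.05, on 4 arrays (IgG1, IgG2 and TRF2-S) or on all 7. The test was first tried on simulated data, with 100 probes changed by a log2 of 1 and 100 by 2. Of the former, 56% were recovered against IgG1 and IgG2 and 68% against all 5, and of the latter 95% and 91%. Smaller changes, such as the 0.44 of *Hspe1*, were not simulated, so 0 called genes does not show that no difference exists. Of 22523 probes, 13793 carry 1 gene symbol, 0 several and 8730 none in the platform annotation, so an unnamed probe may belong to the set. Nothing in the sources says that arrays of a group came from separate cultures beyond the methods' term independent experiments, so the p-values may measure technical spread in part. The number of arrays limits precision.

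Genes named with values are a fixed core of well-known chaperones, up to 3 per family with the largest difference against IgG1 and IgG2 and up to 2 with the smallest p against all 5. The genes that set apart the IgG3-named arrays fall outside that rule. The members, families, co-chaperone lists and markers were chosen with earlier results of these data known. Promoters are RefSeq windows of GRCr8, searched for the 250 bases before the start. Alternatives were other normalizations, background correction (neqc), filters, probes, each array left out, the IgG3-named arrays averaged or as a random block, the replicate number as a block and the methods' per-probe ANOVA.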

Additional observations from a re-analysis of the deposited data

Results flagged for a closer look

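In 3 cases among the 30 chaperone genes named, 1 IgG array lay apart from the other 4, by a gap that took up most of the whole range of the 5 arrays. By chance about 1 group in 20 would be picked out in this way. *Cct4* had a log2 signal of 11.36 on IgG3_0, with a gap of 0.717 of the range. *Tcp1* had 10.42 on IgG3_0, with a gap of 0.804, and both encode subunits of the cytosolic chaperonin. *Dnaja1* had 10.12 on IgG2, the lowest of its 5 IgG arrays, with a gap of 0.718.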

How the results depend on the processing

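Against IgG1 and IgG2 the count of chaperone genes called was 0, and it became 4 after quantile normalization (*Hspe1*, *Dnajc19* and *Dnajc7* higher and *Dnajb1* lower, adjusted p from 0.020 to 0.045), where 554 of all probes were called in place of 14. It became 3 with the replicate number as a block (*Hspe1*, *Dnajc19* and *Dnajb1*), where 648 probes were called. The labels do not say that equal numbers share a culture. Over the 9187 tested probes, TRF2-S array 1 minus array 2 correlated at 0.278 with IgG1 minus IgG2. The block is therefore given here alone. The cause was not tested. Leaving out any array gave 0 called genes in both comparisons, and against all 5 IgG arrays every alternative did. The median difference of the 52 genes less that of all probes was -0.05 against IgG1 and IgG2 (-0.06 to -0.02 over alternatives) and -0.11 against all 5 (-0.20 to -0.09). Counts at an unadjusted p under 0.05 ranged from 0 to 7 lower and 0 to 6 higher against IgG1 and IgG2, fits that left out an array aside. They ranged from 0 to 12 lower and 0 to 4 higher against all 5. In each comparison they were 0 in each direction after median centring or without normalization. The share of all probes at that p is not given for these alternatives, so the ranges show only how the counts moved. With the IgG3-named arrays averaged, 2 were lower and 1 higher. The methods' ANOVA gave 2 lower and 3 higher against IgG1 and IgG2 and 6 lower and 1 higher against all 5, with 0 after adjustment. Each alternative was compared in sign with the fit used above, not with other alternatives. Within a comparison, none of the 30 genes named changed sign where either of those 2 fits had an unadjusted p under 0.05. Sign changes where neither fit did were seen, among them those of *Hspe1*, *Dnajc19* and *Dnajc7* against all 5. Genes whose signal lies near background, such as *Hspb1* and *Hspa2*, cannot show a small difference.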
